A study of Mus musculus with 15 samples.

Results

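A set of 10 genes that build, desaturate and lengthen fatty acids was followed in mouse liver as MYC-driven tumors formed and regressed. They are Acaca, Fasn, Scd1, Scd2, Fads1, Fads2, Elovl1, Elovl3, Elovl5 and Elovl6, chosen by gene symbol in the authors' table, and are 10 of the 19335 genes tested. They have 15 probes on the array, and all 10 genes and all 15 probes passed the filter on dim probes. In tumors Scd1, Fads1, Fads2, Elovl3 and Elovl5 fell against control liver, Scd2 and Acaca rose, and Fasn, Elovl1 and Elovl6 did not pass the test. After 72 hours back on doxycycline, which represses the transgene, Scd1, Fads2 and Elovl5 were higher than in tumors, in a comparison whose calls depended on single arrays.

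In this pathway acetyl-CoA carboxylase, the product of Acaca, makes malonyl-CoA, and fatty acid synthase, the product of Fasn, uses it to build palmitate. The Elovl enzymes lengthen fatty acids, the Scd enzymes place an unsaturated bond in saturated chains, and the Fads enzymes make polyunsaturated fatty acids from those in the diet. In liver the pathway is known for its response to feeding and insulin through the transcription factors SREBP-1c and ChREBP, encoded by Srebf1 and Mlxipl.

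All mice were of the FVB/N strain and carried LAP-tTA, a transgene that makes the doxycycline-repressed activator tTA from a liver promoter. The feeding protocol given for every sample is chow with 200 mg/kg doxycycline until the mice were over 8 weeks old. Control livers (n = 3) came from mice with LAP-tTA alone, whose time off doxycycline the labels do not give. The other 3 groups also carried TRE-MYC, a MYC transgene that tTA switches on. Pre-tumor livers (n = 4), without tumor, were collected 4 to 5 weeks after doxycycline was withdrawn, and tumors (n = 4) after 8 to 9 weeks. Regression samples (n = 4) were tumor tissue from mice that had been without doxycycline for 8 to 9 weeks and were then given it again for 72 hours. Since no label ties an array to its own animal, p-values measure the spread between these samples.

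Each RNA was hybridised to 1 Agilent array, and the arrays lay on 4 slides, each with at most 1 array of a group. Between 46.4% (tumor 3) and 90.8% (pre-tumor 4) of an array's spots were well above background, and no spot was saturated. A level is the log2 signal above the 75th percentile of its array, so 0 is the 75th percentile and each unit is a doubling. Levels of different genes come from different probes and are not compared. The median difference of all genes was -0.18 in tumor against control and -0.12 in regression against tumor. The brightest mouse Myc probe did not pass in any comparison (tumor against control -1.10, adjusted p = 0.128, limma). Whether that probe reads the MYC transgene is not given in the sources used here, so it does not check the labels.

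The hepatocyte list (6 genes tested) was well above background on all tumor arrays for Alb, Apoa1, Apob, Ttr and Hnf4a, so these genes were still detected there. Its summed signal, in multiples of the 75th percentile, was 2281 to 2866 in controls, 1472 to 4731 in pre-tumor, 303 to 1001 in tumors and 1613 to 3116 in regression. The Alb spot of regression 2 was left out, so the sum of that array lacks Alb. On the other regression arrays the level of Alb was 10.27 to 10.60, a large part of the sum. In tumors 5 of the 6 genes fell and none rose, and in regression against tumor 5 rose and none fell. In these comparisons the list moved in the same direction as Scd1, Fads1, Fads2 and Elovl5, though the rise of Fads1 in regression did not pass. The sizes differed. Against control the list's median difference was -1.64 in tumors and 0.06 in regression. In the same order the differences were -4.56 and -2.38 for Scd1 and -2.31 and -1.10 for Elovl5. They were -2.22 and -1.12 for Fads1 and -1.87 and -0.75 for Fads2. The part of the hepatocyte list in their results was not tested. In these bulk samples fewer hepatocytes and less RNA per hepatocyte cannot be told apart.

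Promoter sequences were taken from RefSeq (GRCm38.p6), where 6 of the 10 members had 7 entries. The 250 bases before the annotated start were searched on both strands for the E-box CACGTG, which MYC and ChREBP-family factors can bind, CCAAT, the GC box GGGCGG and the sterol regulatory element core TCACNCCAC. The E-box was in 1 of the 7 windows, that of Elovl5, 161 bases before the start, and in 6.02% of all 32851 promoters. CCAAT was in 3 windows (33.8% of all promoters) and GGGCGG in 3 (32.7%), and these overlap by 2 bases at 1 place in an Elovl1 window. TCACNCCAC was in 0 (1.05%). The sequences below are shown for Elovl5 and Fads2, which fell in tumors and rose in regression, and for Fasn and Elovl6, whose levels were lower in every regression array than in any tumor array. Capitals mark the searched motifs, and a match is a description of the letters only.
Elovl5: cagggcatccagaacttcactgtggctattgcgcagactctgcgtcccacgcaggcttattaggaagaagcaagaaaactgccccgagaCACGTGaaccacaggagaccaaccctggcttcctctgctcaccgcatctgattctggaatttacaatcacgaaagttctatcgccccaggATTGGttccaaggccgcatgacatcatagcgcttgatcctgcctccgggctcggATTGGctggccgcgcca
Fads2: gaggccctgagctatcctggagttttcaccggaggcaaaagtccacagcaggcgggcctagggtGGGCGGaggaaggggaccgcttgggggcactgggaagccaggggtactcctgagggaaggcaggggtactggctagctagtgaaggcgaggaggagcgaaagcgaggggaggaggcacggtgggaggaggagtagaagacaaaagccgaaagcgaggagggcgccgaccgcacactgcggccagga
Fasn: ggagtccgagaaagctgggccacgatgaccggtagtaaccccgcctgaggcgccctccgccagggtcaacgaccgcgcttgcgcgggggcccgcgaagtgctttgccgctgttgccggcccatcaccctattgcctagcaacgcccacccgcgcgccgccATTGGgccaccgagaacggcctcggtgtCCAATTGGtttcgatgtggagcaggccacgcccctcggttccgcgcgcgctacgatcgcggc
Elovl6: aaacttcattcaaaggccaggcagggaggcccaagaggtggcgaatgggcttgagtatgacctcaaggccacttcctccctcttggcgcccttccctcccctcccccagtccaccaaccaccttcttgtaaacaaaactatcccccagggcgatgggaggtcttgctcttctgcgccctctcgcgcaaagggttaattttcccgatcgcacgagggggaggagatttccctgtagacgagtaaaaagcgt
Elovl5 lies at chr9:77917115-77917364 on the plus strand and Fads2 at chr19:10101504-10101753 on the minus strand. Fasn lies at chr11:120824548-120824797 on the minus strand and Elovl6 at chr3:129532136-129532385 on the plus strand. Distances are to the first printed base of a match. The Elovl5 window holds CCAAT on the opposite strand at 71 and 17 bases before the start. The Fasn window holds CCAAT letters at 90, 62 and 59 bases before the start, the last pair overlapping. The Fads2 window holds 1 GGGCGG, 186 bases before the start, and the Elovl6 window holds none of the 4 motifs.

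**Figure D1:**
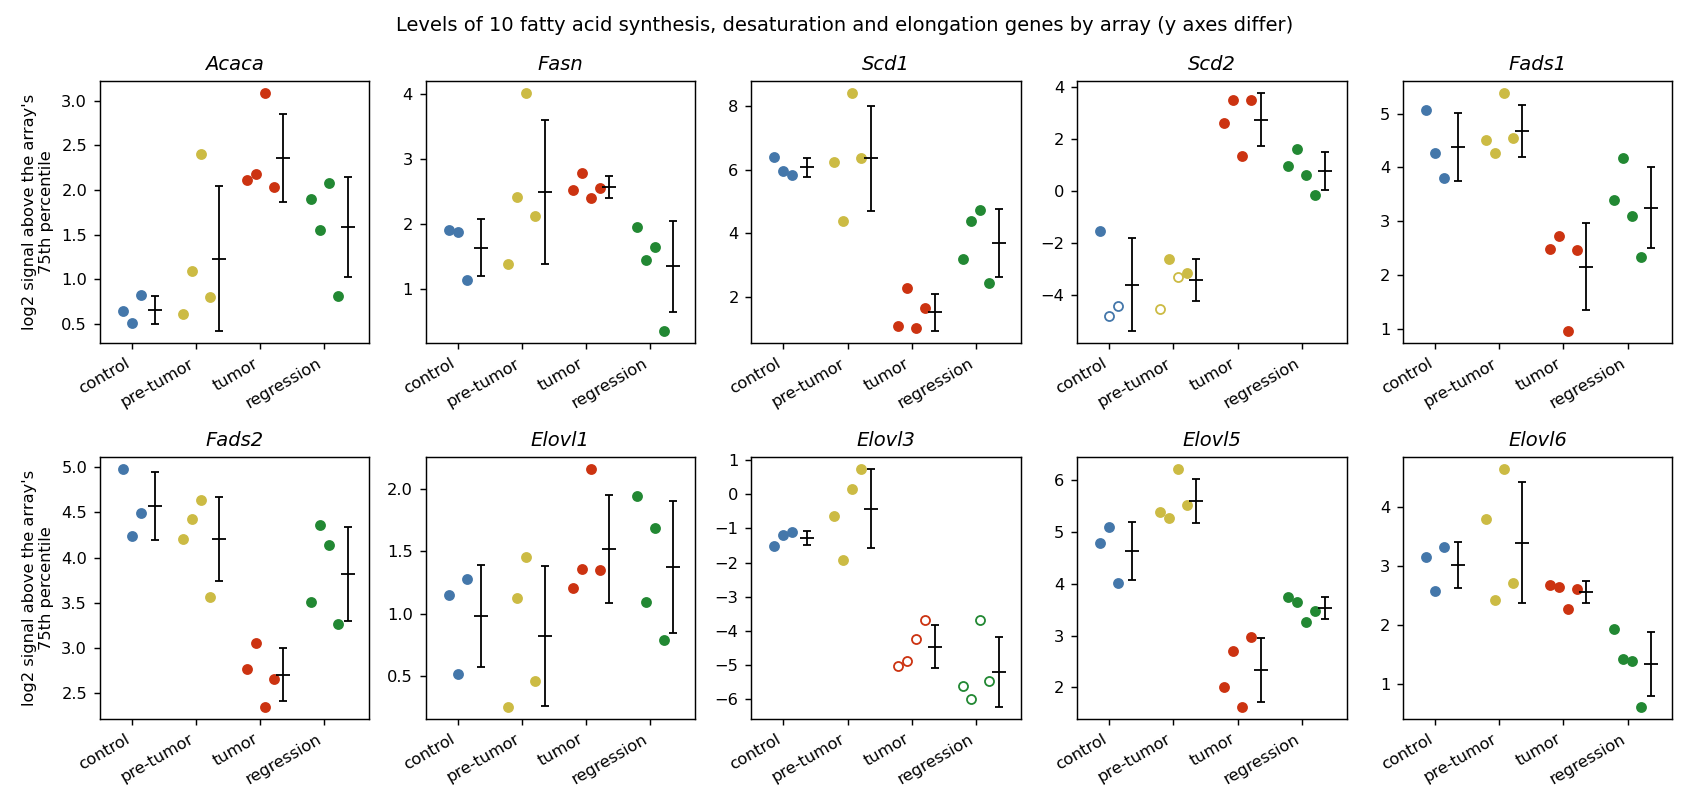
Level of each of the 10 genes on every array (log2 signal above the array's 75th percentile), by group, with n = 3 controls and 4 arrays in each other group. Filled points were well above background and open points were not, and the bars are mean ± SD. Scd1 is lowest and Scd2 highest in tumors, and Elovl3 is open on all 8 tumor and regression arrays.

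Scd1, the main stearoyl-CoA desaturase of adult liver, was 6.40, 5.96 and 5.85 in controls, 6.26, 4.39, 8.42 and 6.36 in pre-tumor livers, 1.09, 2.28, 1.01 and 1.66 in tumors, and 3.19, 4.38, 4.74 and 2.45 in regression. Every tumor array was below every other array of the series, and the regression arrays lay between tumors and controls. Scd1 fell by 4.56 ± 0.73 (SE) on the log2 scale in tumor against control, which is 23.6-fold (limma, adjusted p = 0.000389). On the 3 slides that hold both groups the difference ran from -5.39 to -3.57. Against pre-tumor liver it fell by 4.85 ± 0.68 (limma, adjusted p = 8.5e-05).

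Scd2, a second stearoyl-CoA desaturase known mainly from brain and newborn tissues, went the other way. Its level was -1.55, -4.82 and -4.43 in controls, -4.55, -2.63, -3.32 and -3.17 in pre-tumor livers, 2.62, 3.49, 1.34 and 3.51 in tumors, and 0.96, 1.60, 0.61 and -0.14 in regression. It was well above background on 1 of 3 control and 2 of 4 pre-tumor arrays, and on all tumor and regression arrays, so its low levels rest on signals near background. Scd2 rose by 6.34 ± 0.74 (SE) on the log2 scale in tumor against control (limma, adjusted p = 1.96e-05) and by 6.16 ± 0.69 against pre-tumor. On the 3 shared slides the difference was 2.89 to 8.33. The size differed between normalizations. It was 3.84 in the authors' table, 2.44 after normexp background correction with quantile normalization, and 6.57 with quantile normalization alone, each past the threshold (limma, adjusted p = 1.6e-05, 0.000253 and 2.3e-05).

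Of the cell types in the fixed marker lists, Fabp4, an adipocyte gene, rose by 1.75 in tumors, while Adipoq (-1.16), Plin1 (0.13), Lep, Retn and Cfd did not pass, and the list's median difference was -0.73. The adipocyte list's summed signal was 7.42 to 12.6 in controls, 2.90 to 13.9 in pre-tumor, 14.8 to 34.9 in tumors and 28.8 to 129 in regression. Most of that sum is Fabp4, whose spot was left out on 1 pre-tumor array. The mean log2 level of the list overlapped between all groups, at -1.16 to -0.62 in controls, -1.74 to -0.81 in pre-tumor, -1.44 to -0.89 in tumors and -1.53 to -0.82 in regression. The stellate cell and fibroblast list (7 genes) ran from 4.89 to 14.0 in controls, 8.50 to 16.2 in pre-tumor, 16.9 to 25.6 in tumors and 50.6 to 179 in regression, with Col3a1, Col1a1 and Pdgfrb higher in tumors. Its median difference was -0.55 in tumor against control and 2.61 in regression against tumor. The part of these cell types in the Scd2 result was not tested.

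The within-array difference Scd2 minus Scd1 removes what scales both probes on an array. Its zero has no meaning, because the probes differ, and only its change between groups is read. It ran from -10.79 to -7.95 in controls, -11.74 to -7.02 in pre-tumor, 0.33 to 1.85 in tumors and -4.14 to -2.23 in regression. Tumors and regression arrays overlapped with no other group. The mean difference was 10.90 higher in tumor than in control and -4.16 in regression against tumor (exact permutation test, two-sided, p = 0.0286 each, the smallest this design allows, and 0.0367 after adjustment over 9 tests). On every tumor array Scd2 was above and Scd1 below all controls. The tumor against control p could therefore take no other value and adds nothing to the results of the single genes. The size of 10.90 rests on control Scd2 signals of which only 1 of 3 was well above background. With normexp correction the tumor against control value was 6.34.

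**Figure D2:**
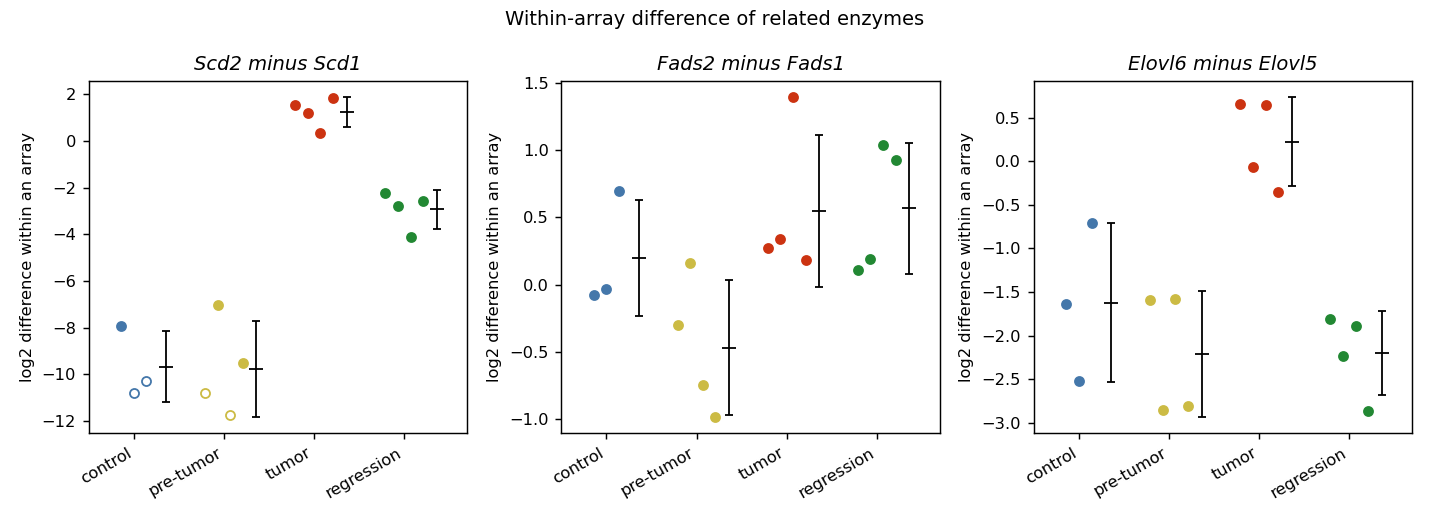
Within-array log2 differences Scd2 minus Scd1, Fads2 minus Fads1 and Elovl6 minus Elovl5 on every array, by group (open points: a probe of the pair was not well above background), with mean ± SD. Scd2 minus Scd1 runs from 0.33 to 1.85 in the 4 tumors and is at -2.23 or lower elsewhere, and its zero has no meaning.

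Fads1 and Fads2, the desaturases of polyunsaturated fatty acid synthesis, are neighbours on chromosome 19 and both fell in tumors. Fads1 was 5.06, 4.27 and 3.80 in controls, 4.50, 4.27, 5.39 and 4.55 in pre-tumor livers, 2.48, 2.72, 0.95 and 2.47 in tumors, and 3.40, 4.17, 3.10 and 2.34 in regression. Fads2 was 4.99, 4.24 and 4.50 in controls, 4.20, 4.43, 4.64 and 3.56 in pre-tumor livers, 2.76, 3.05, 2.34 and 2.65 in tumors, and 3.50, 4.36, 4.14 and 3.26 in regression. For both genes tumors lay below all control and pre-tumor arrays. Fads1 fell by 2.22 ± 0.51 (4.66-fold) and Fads2 by 1.87 ± 0.37 (3.66-fold) against control (limma, adjusted p = 0.00601 and 0.00202). Without the 4 arrays of highest spike-in signal Fads1 missed the threshold (-1.98, adjusted p = 0.0596). Fads2 minus Fads1 did not differ beyond the spread in tumor against control (0.35, exact permutation test, adjusted p = 0.579) or regression against tumor (0.02, adjusted p = 0.971). It was 1.01 higher in tumor than in pre-tumor (exact permutation test, adjusted p = 0.0367).

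Elovl5, which lengthens polyunsaturated chains made by the Fads enzymes, was 4.79, 5.10 and 4.02 in controls, 5.39, 5.28, 6.23 and 5.52 in pre-tumor livers, 2.01, 2.70, 1.62 and 2.97 in tumors, and 3.75, 3.66, 3.27 and 3.47 in regression. The 4 groups did not overlap at any point. It fell by 2.31 ± 0.39 (4.96-fold) in tumor against control and by 3.28 ± 0.36 against pre-tumor (limma, adjusted p = 0.0006 and 8.17e-06). Its second probe, A_52_P676944, gave -2.38 ± 0.35 against control. Within slides the tumor against control difference was -3.17 to -1.31.

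Elovl3, an elongase of very long saturated and monounsaturated chains, was -1.52, -1.20 and -1.12 in controls and -0.65, -1.93, 0.14 and 0.75 in pre-tumor livers. It was not well above background on any of the 8 tumor and regression arrays, whose levels of -6.01 to -3.67 are therefore signals near background. The measured differences were -3.18 in tumor against control and -4.04 against pre-tumor (limma, adjusted p = 0.00174 and 9.14e-05). A fold was also set against the dimmest signal that still counted as well above background on the dim arrays. Set so, Elovl3 was 3.08-fold lower in tumor than in control and 5.57-fold lower than in pre-tumor. Other probes that were not well above background can be brighter than that signal, so these folds are not strict lower limits. In the authors' table the difference from control was -0.88 (adjusted p = 0.0443), and after normexp correction it was -0.40 and missed the threshold (adjusted p = 0.124).

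Acaca was the member at the start of the pathway that rose. Its level was 0.64, 0.51 and 0.82 in controls, 0.61, 1.09, 2.41 and 0.80 in pre-tumor livers, 2.11, 2.18, 3.09 and 2.03 in tumors, and 1.90, 1.55, 2.07 and 0.81 in regression. All tumors lay above all controls, while pre-tumor 3 overlapped with the tumors. Acaca rose by 1.70 ± 0.45 (3.24-fold) against control (limma, adjusted p = 0.0149), and without control 2 it was 1.62 with an adjusted p of 0.0555. Against pre-tumor it was 1.13 higher and missed the threshold (adjusted p = 0.0721), which did not hold under every setting. It passed without pre-tumor 3 (1.52, adjusted p = 0.00817), in the authors' table (0.99, adjusted p = 0.016), after normexp correction (0.75, adjusted p = 0.0217), with quantile normalization (1.11, adjusted p = 0.0351), with the stricter filter on dim probes (adjusted p = 0.0494) and with a trended variance (adjusted p = 0.0467). Its 4 probes did not all move alike. Of the others A_52_P318040 rose by 1.55 (adjusted p = 0.0221), A_52_P23177 was 1.10 higher (adjusted p = 0.0874) and A_51_P439426 was 0.23 higher (adjusted p = 0.788, limma over all passing probes).

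Fasn was 1.90, 1.88 and 1.13 in controls, 1.39, 2.42, 4.01 and 2.12 in pre-tumor livers, 2.52, 2.79, 2.39 and 2.56 in tumors, and 1.95, 1.44, 1.65 and 0.35 in regression. The tumor arrays were the tightest group and lay above all controls and all regression arrays. The difference from control was 0.93 ± 0.52 and did not pass (95% interval -0.18 to 2.04, limma, adjusted p = 0.264). Its second probe, A_52_P100252, gave the opposite sign, -1.05 ± 0.61 (adjusted p = 0.297), with pre-tumor 4 left out as an outlier spot and tumor 3 not well above background. The sign for Fasn in tumors is therefore not settled by these probes.

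Elovl6, which lengthens palmitate to stearate, was 3.16, 2.57 and 3.31 in controls, 3.79, 2.42, 4.65 and 2.71 in pre-tumor livers, 2.68, 2.64, 2.28 and 2.61 in tumors, and 1.94, 1.42, 1.38 and 0.61 in regression. Tumors overlapped with controls (-0.46 ± 0.48, 95% interval -1.48 to 0.55, limma, adjusted p = 0.578), and regression lay below every other array. Elovl1, which makes very long saturated chains, ran from 0.25 to 2.16 with all 4 groups overlapping (tumor against control 0.54 ± 0.40, 95% interval -0.32 to 1.39, adjusted p = 0.42). Elovl6 minus Elovl5 was 1.85 higher in tumor than in control, 2.44 higher than in pre-tumor, and -2.42 in regression against tumor (exact permutation test, adjusted p = 0.0367 each).

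**Figure D3:**
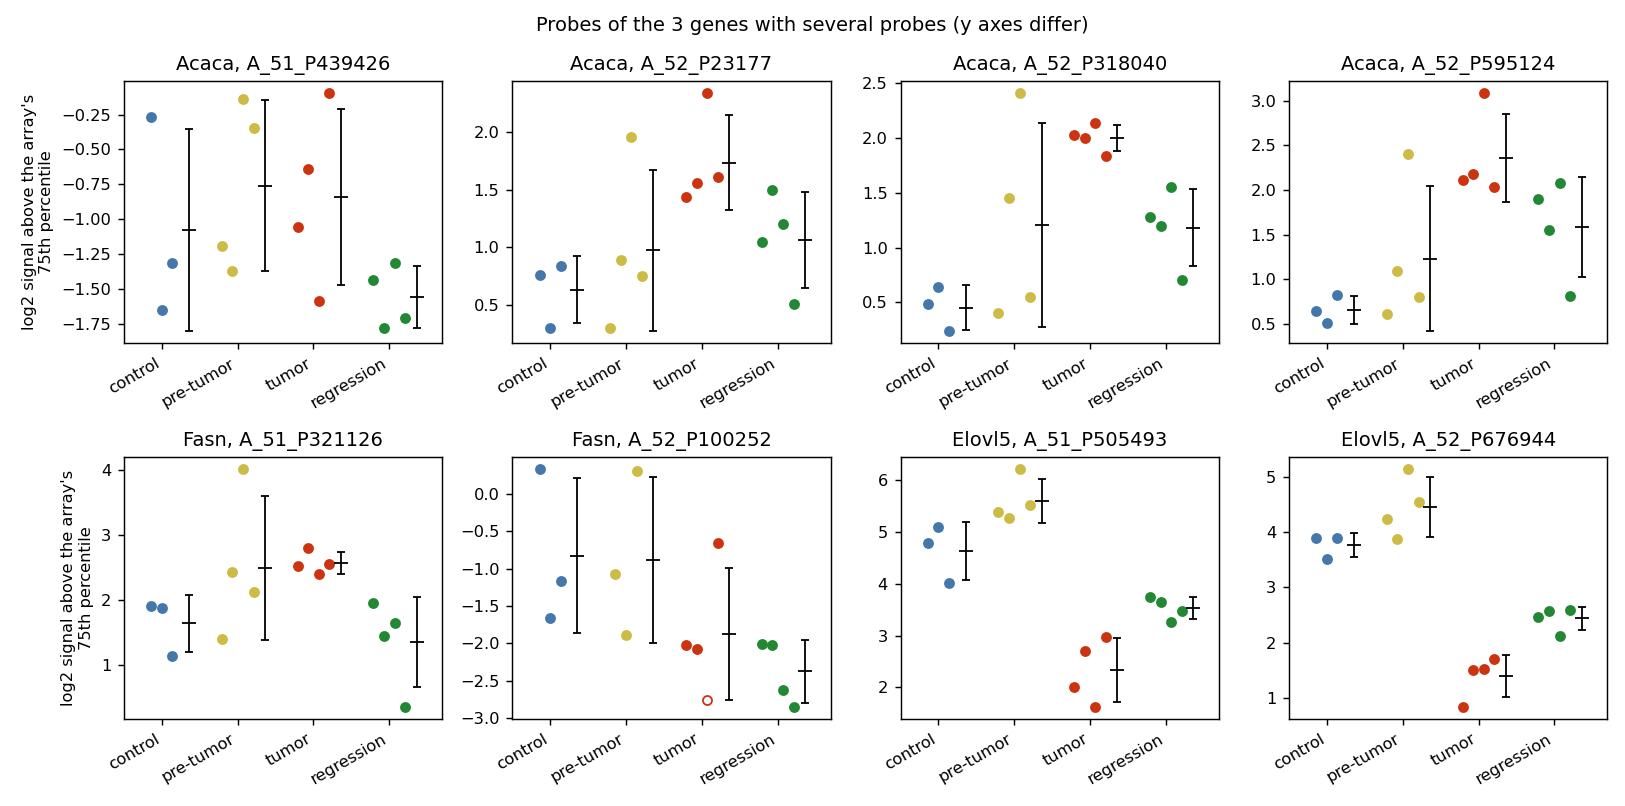
Levels of the 4 Acaca, 2 Fasn and 2 Elovl5 probes on every array, by group (open point: not well above background), with mean ± SD. The Elovl5 probes show the same order of groups, the Fasn probes do not, and Acaca probe A_51_P439426 overlaps between tumors and controls.

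Counted over the members, tumor against control gave 2 that rose and 5 that fell, where 16.4% of all genes passed (9.37% higher and 7.01% lower). Of the genes that passed 57.2% were higher, and with all arrays median-centred 68.7%, where the median of all genes was 0.14. Without tumor 4 that share was 47.0%. The 7 members passed in the same directions under that centring. The members' median difference was -1.17, beside -0.18 for all genes. In 8 of the 10 the groups did not overlap, 3 higher (13.7% of all genes) and 5 lower (11.9%). Tumor against pre-tumor gave 1 that rose and 5 that fell (19.2% of all genes passed), with a median of -1.17. Here the higher share of the genes that passed was 52.0%, 62.3% with median centring and 44.4% without tumor 4.

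Pre-tumor liver against control gave 0 members that passed with limma, where 0% of all genes did and the smallest adjusted p of any gene was 0.111. At an unadjusted p under 0.05 there was 1 member, Elovl5 (0.97 ± 0.39), and 2.64% of all genes. Elovl5 was also the only member whose pre-tumor and control arrays did not overlap, as in 2.03% of all genes in that direction. The intervals allow sizeable differences, such as -1.27 to 1.85 for Scd1. Pre-tumor 3 held the highest pre-tumor value of 8 of the 10 members, and also of Acly (4.00), Me1 (3.88) and Thrsp (7.07). The labels do not give feeding state or time of day, and their part in these levels was not tested.

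**Figure D4:**
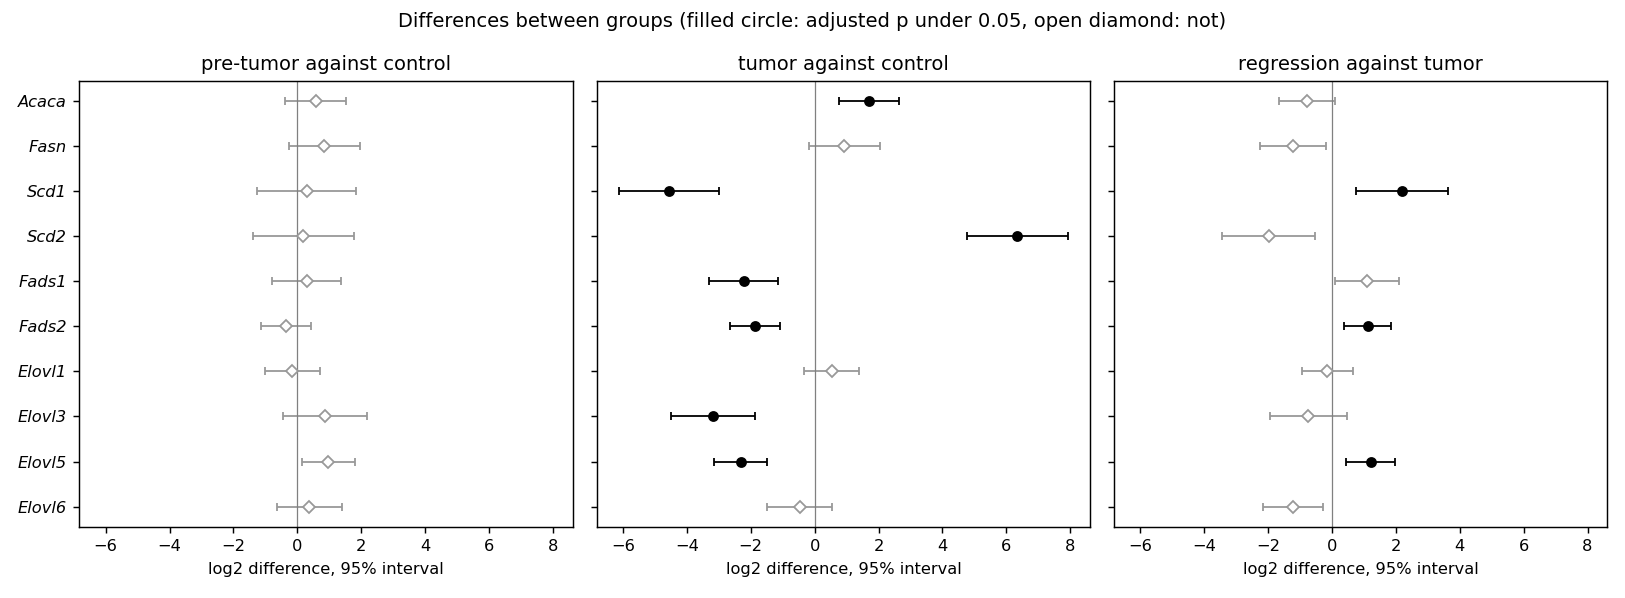
Log2 difference of each gene with its 95% interval (limma) in pre-tumor against control, tumor against control and regression against tumor; filled circles passed at an adjusted p under 0.05 and open diamonds did not. In tumor against control 7 of the 10 passed, from Scd1 at -4.56 to Scd2 at 6.34.

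In regression against tumor 3 members rose and none fell, where 16.8% of all genes passed (8.46% higher and 8.35% lower). Scd1 rose by 2.18 ± 0.68, Fads2 by 1.12 ± 0.34 and Elovl5 by 1.21 ± 0.36 on the log2 scale (limma, adjusted p = 0.037, 0.034 and 0.0301), each higher on all 4 slides. Scd2 (-1.98 ± 0.69, adjusted p = 0.0615), Fasn (-1.22 ± 0.48, adjusted p = 0.107) and Elovl6 (-1.21 ± 0.44, adjusted p = 0.0762) missed the threshold, each lower on all 4 slides. The groups did not overlap for 3 members higher in regression (10.9% of all genes) and 2 lower, Fasn and Elovl6 (12.8%). Fads1 (1.10, adjusted p = 0.141), Acaca (-0.77), Elovl1 and Elovl3 did not pass. The tumor arrays enter both this comparison and tumor against control. The count is not stable: it was 0 without tumor 1 or without regression 2. It was 1 without tumor 4 or regression 3 (Elovl5) and with slide as a block (Scd1). Without tumor 3 all 3 of these calls were lost, and the 1 call was Scd2, lower by a difference of -2.45 (adjusted p = 0.0274). Without pre-tumor 3 it was 5, with Fasn and Elovl6 lower beside the 3 higher. The authors' table gave 6 calls, with Scd2, Fasn and Elovl6 lower beside 3 higher.

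Regression arrays were still apart from control liver for 3 members (8.39% of all genes passed, of which 61.0% were higher, 72.7% with median centring and 52.0% in a fit of the compared groups alone). Scd2 was 4.36 ± 0.74 higher, Elovl3 differed by -3.92 and Elovl6 fell by 1.68 ± 0.48 (limma, adjusted p = 0.00133, 0.000678 and 0.0411). Set against the dimmest signal well above background, Elovl3 was 4.48-fold lower. The Elovl6 call was lost in 9 of the 15 fits that leave out 1 array, among them each without a control array, with median centring (-1.37, adjusted p = 0.164) and with slide as a block (-1.74, adjusted p = 0.0704). With normexp correction Scd2 was 1.05 higher and Elovl3 -0.38, and neither passed. In the authors' table Elovl3 was -0.89 and also missed the threshold (limma, adjusted p = 0.0637). Scd1 (-2.38, adjusted p = 0.0583) and Elovl5 (-1.10, adjusted p = 0.0986) missed the threshold. With Elovl3 and Elovl6 they were the 4 members lower on every regression array than on any control array, as were 14.9% of all genes. Against pre-tumor liver Scd2 rose by 4.18 and Scd1, Elovl3, Elovl5 and Elovl6 fell (9.96% of all genes passed, of which 50.5% were higher, 63.9% with median centring and 46.7% without tumor 4). The Scd1 call there (-2.67, adjusted p = 0.019) was lost without pre-tumor 3, where it was -1.98 (adjusted p = 0.0505), and without regression 1 or regression 4. It was also lost in a fit of the compared groups alone (limma, adjusted p = 0.0601). The same held without the 4 arrays of highest spike-in signal (-2.71, limma, adjusted p = 0.118). Regression 4 held the lowest regression value of 8 of the 10 members.

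Among other genes of the pathway, those that supply acetyl-CoA and NADPH split in tumors: 2 of 7 rose and 3 fell, with a median of -0.87. G6pdx (2.27 ± 0.34) and Pgd (2.04 ± 0.48), the oxidative pentose phosphate enzymes that make NADPH, rose (limma, adjusted p = 0.0002 and 0.0072). Me1, malic enzyme (-3.01 ± 0.63), Idh1 (-1.54) and Acss2, which makes acetyl-CoA from acetate (-2.62), fell. Acly, which makes acetyl-CoA from citrate, was 0.66 higher and did not pass (adjusted p = 0.295). In regression G6pdx fell by 1.14 (adjusted p = 0.019).

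Of 18 regulators of lipogenesis 2 rose and 3 fell in tumors, with a median of -0.41. Thrsp, a lipogenic gene induced by feeding and thyroid hormone, fell by 5.55 ± 0.77 and Insig2, which holds SREBP in the endoplasmic reticulum, by 3.36 ± 0.30 (limma, adjusted p = 0.000104 and 1.73e-06). Both rose in regression, by 2.26 and 2.49. Srebf2 rose by 1.13 and Prkaa1, a catalytic subunit of AMP-activated kinase, by 2.09, while Nr1h3 fell by 1.16. Srebf1 (0.50, adjusted p = 0.549) and Mlxipl (-1.22, adjusted p = 0.095) did not pass against control. Mlxipl fell by 1.34 against pre-tumor (adjusted p = 0.0412).

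The remaining lists held few calls of the same families. Of 8 other Acac, Scd, Fads and Elovl genes Elovl7 rose by 2.51 (limma, adjusted p = 0.0025) and none fell. Acacb, the mitochondrial acetyl-CoA carboxylase, was -1.49 and missed the threshold (adjusted p = 0.0678). Of 8 partner enzymes of elongation and desaturation Cyb5a, the cytochrome that passes electrons to desaturases, fell by 2.04, and Hacd1 did not pass (0.93). In regression the dehydratases Hacd1 (-1.49) and Hacd2 (1.33) passed in opposite directions. None of 5 mitochondrial fatty acid synthesis genes passed in tumors, with Ndufab1 at 0.67 and Oxsm at 0.81. Of 5 acyl-CoA synthetases Acsl3 rose by 2.51 and Acsl4 fell by 1.53. Of 15 genes of glycerolipid synthesis and lipid droplets 5 fell and none rose, with a median of -1.31: the droplet coat Plin5 (-2.95), Cidec (-3.44), Fitm2 (-1.94), Dgat2, which makes triglyceride (-1.66), and Lpin1 (-2.98). In regression Plin2 (2.05) and Cidec (2.14) rose.

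**Figure D5:**
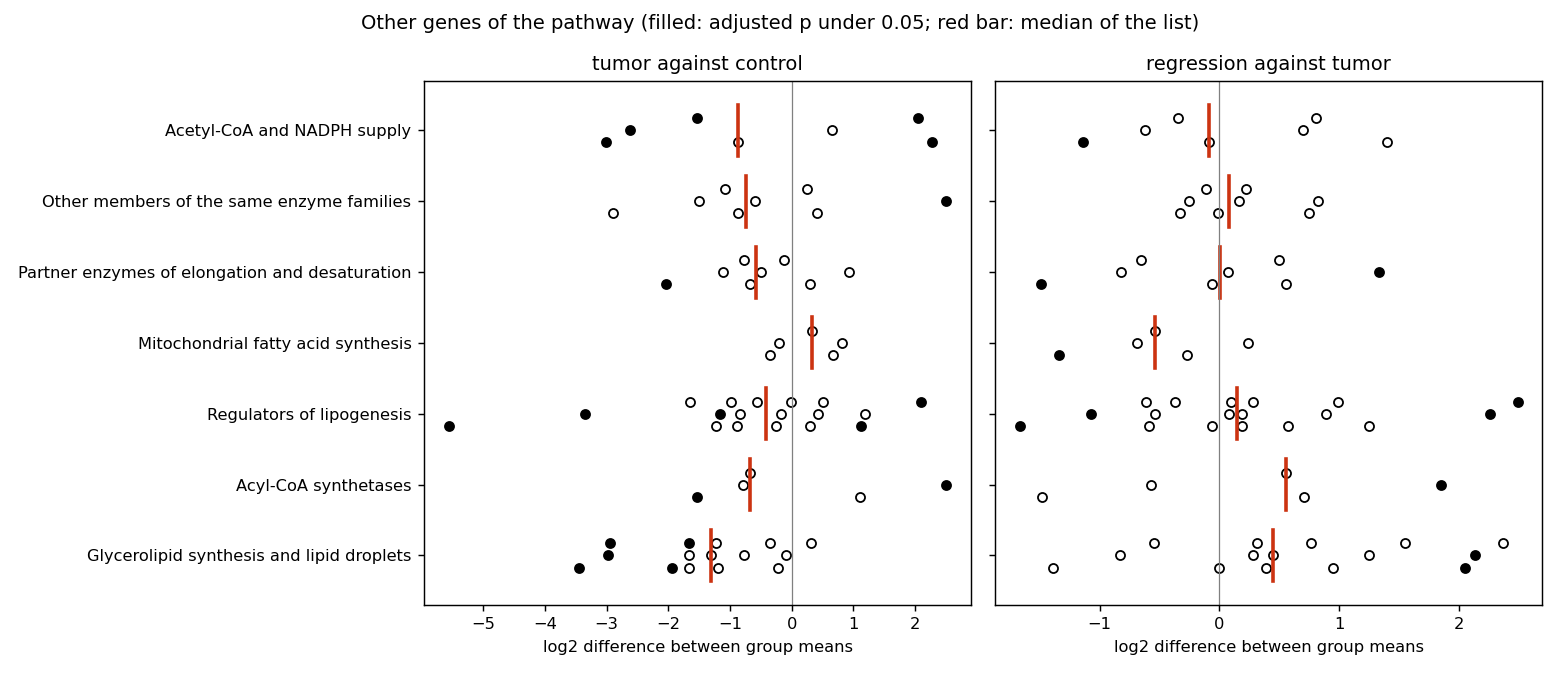
Log2 differences of the other genes of 7 pathway lists in tumor against control and regression against tumor (filled: adjusted p under 0.05 over all genes; red bar: median of the list). The glycerolipid and lipid droplet list has its median at -1.31 in tumors and at 0.45 in regression.

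Genes that respond to feeding did not move one way. Of 11 tested 2 rose and 4 fell in tumors. Among them Ppp1r3b, which directs a phosphatase to glycogen, fell by 2.89 and the hormone gene Fgf21 by 1.68, and Txnip (2.62) and Igfbp1 (4.32) rose. Male-biased liver genes fell in 8 of 8 and female-biased in 5 of 10. Of 12 clock genes 1, Nr1d2, fell against control (-1.41). Against pre-tumor 4 of the 12 fell, with a list median of -0.87 beside -0.13 for all genes. Among the marker lists of other cells, 2 of 6 macrophage genes fell against control and 1 rose. In the same comparison 1 of 6 endothelial, 1 of 5 bile duct and 1 of 4 erythroid genes fell. There 0 of 6 lymphocyte and 0 of 5 sex chromosome genes passed. Against pre-tumor 1 of the 5 sex chromosome genes, Ddx3y, fell (-1.17, limma, adjusted p = 0.0192). In regression against tumor 5 of 6 endothelial, 5 of 7 stellate, 4 of 6 lymphocyte, 3 of 6 macrophage and 3 of 4 erythroid genes rose. The part of these cell types in the members' results was not tested.

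The genes whose levels followed a member most closely over the 15 arrays, by the root mean square difference of centred log2 levels, were for Scd1 Ttc39c (0.60), Thrsp (0.62) and Lect2 (0.71), where the standard deviation of Scd1 itself was 2.26. For Elovl5 they were Cyp2c40 (0.37), Pls3 (0.38) and Gjb2 (0.41), against 1.36. For Fads1 they were Idh1 (0.39), Mgam (0.40) and Akr1c13 (0.42), against 1.21. For Scd2 they were Spire1 (1.00), Morc4 (1.05) and Bex4 (1.07), against 2.97. These values are descriptions over arrays that share their groups.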

How the data were processed

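Per the labels' protocols, RNA was amplified, Cy3-labelled and hybridised to Agilent whole-genome mouse arrays. Per the file headers, Agilent Feature Extraction 10.5.1.1 gave a background-subtracted intensity on a linear scale. The authors also deposited a table of normalized log2 intensity, by a method not given in the sources used here, which served as an alternative and for gene symbols.

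The log2 of the processed signal was taken, less the 75th percentile of its array. Outlier spots were left out (0.272% of values), and a probe was kept when well above background on at least 3 of 15 arrays. Of 41174 probes, 29877 passed with a symbol, and 4425 of 21538 symbols were updated from a RefSeq table. A gene is its brightest passing probe.

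The test was limma 3.58.1 in R 4.3.3, 1 model for 4 groups (11 residual degrees of freedom, 6 comparisons), adjusted by Benjamini-Hochberg over 19335 genes, with an adjusted p under 0.05 as the threshold. It was tested on simulated data. Arrays give no counts, and their number limits the precision. Differences of 3 gene pairs were tested by exact permutation over samples. Named genes are the members, a few regulators and, from each list, the called genes in order of adjusted p, up to 4 in tumor against control; Fgf21, Igfbp1, Lpin1, Srebf2, Acss2, Col1a1, Col3a1, Pdgfrb, the adipocyte markers and genes named in the other comparisons were added after their values were seen. Some genes that the rule names are not reported here. Members, lists, pairs and tests were chosen with earlier results of these data known. Normexp used the median spot signal.

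Alternatives were quantile normalization with and without normexp correction (offset 50), median centring, the authors' table, other filters, the mean of probes, slide or replicate blocks, only the compared groups, a trended variance and each array left out. Leaving out 4 arrays of high spike-in signal, leaving out pre-tumor 4 with tumor 3, and the fit of single probes were added after seeing the data.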

Additional observations from a re-analysis of the deposited data

Results flagged for a closer look

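In 4 of the 30 groups of 4 arrays tested, 1 array lay far from the other 3 by Dixon's criterion, where chance alone marks about 1 in 20. All 4 are tumor 3. Its Acaca level was 3.09 (other tumors 2.03 to 2.18), its Elovl1 level 2.16 (1.20 to 1.36), its Fads1 level 0.951 (2.47 to 2.72) and its Elovl6 level 2.28 (2.61 to 2.68). Tumor 3 also had the lowest share of spots well above background, 46.4%, and the lowest tumor value of 7 of the 10 members. The part of signal strength in these levels was not tested.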

How the results depend on the processing

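The 6 counts of called members were recomputed under 28 alternatives. The count stayed at 0 for pre-tumor against control, 6 to 7 for tumor against control, 5 to 7 for tumor against pre-tumor and 4 to 6 for regression against pre-tumor. For regression against tumor (3) it was 6 in the authors' table, 6 with only the compared groups, 1 with slide as a block, 1 without pre-tumor 4 and tumor 3, and 0 to 5 with 1 array left out. For regression against control (3) it was 1 after normexp correction and 2 to 4 with 1 array left out. No called value changed sign. The cause of these changes was not tested.

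With 1 array left out the within-array differences ran as follows, where fewer samples limit the smallest p: Scd2 minus Scd1 10.34 to 11.76, 10.35 to 11.92 and -4.46 to -3.76 (tumor against control, tumor against pre-tumor, regression against tumor), Elovl6 minus Elovl5 1.40 to 2.31, 2.22 to 2.65 and -2.62 to -2.20, and Fads2 minus Fads1 in tumor against pre-tumor 0.73 to 1.22.

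Deviations of same-numbered samples correlated with a median of 0.12 (21 correlations, -0.44 to 0.61), beside -0.04 for different numbers, and 8 of 15 arrays correlated best with one of their own number. Since not every correlation was over 0.1 and no label ties the numbers, they are not taken as pairs, and the best matches are a hint from the data, not the design. With a replicate block 7 members passed in tumor against control, and over all genes 4518 passed in tumor against control (3167 without) and 3510 in regression against control (1623 without), of which 47.5% and 37.9% were higher (57.2% and 61.0% without). That block also called Acaca in tumor against pre-tumor (1.13, adjusted p = 0.0199) and in regression against control (1.09, adjusted p = 0.0446), and Elovl6 in regression against tumor (-1.21, adjusted p = 0.0492). In regression against control 991 genes passed with slide as a block and 1027 to 1057 without control 1, control 3 or regression 1. In pre-tumor against control 0 to 11 passed, 11 after normexp correction and 3 in the authors' table. For Scd2 and Elovl3, members near background, sizes differed between normalizations.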
